A study of Mus musculus with 4 samples.

Results

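The genes of the aminoacyl-tRNA synthetases, the enzymes that charge each tRNA with its amino acid, were followed in ribosome-bound and total RNA of the mouse amygdala. Members were chosen by name alone: the genes of the cytosolic enzymes, and the genes that carry such a name followed by 2 or are named Pars2 or Ears2, which encode the mitochondrial enzymes. This gave 36 genes of 23991 gene symbols, 20 of them cytosolic and 16 mitochondrial. All 36 passed the filter on low values, which asked for an FPKM (fragments per kilobase of transcript, scaled to the mapped reads) of at least 1 in at least 2 libraries. Fars2 and Tarsl2 encode synthetases too, but their names fall outside this choice, and they are given with the related genes.

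The study used translating ribosome affinity purification (TRAP), in which tagged ribosomes are pulled down together with the RNA bound to them. The immunoprecipitate (IP) libraries held this ribosome-bound RNA, and the input libraries held the total RNA of the same tissue. Both groups came from NpyCre/+;TRAPlox/lox mice, in which Cre is driven by Npy, the gene of neuropeptide Y, and acts on the lox allele of the tag. Each group had 2 libraries, each made from the amygdala RNA of 3 pooled mice. Each IP and its input came from the same pool per the design text. The age and sex of the mice and the tagged protein are not given in the sources used here, and a pull-down without Cre was not analysed here, so RNA that adheres without a tag is part of the IP values.

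Each synthetase joins its amino acid to the matching tRNAs, and so sets which amino acid a codon is read as. The cytosol and the mitochondrial matrix run separate translation systems, and for most amino acids a nuclear gene of its own encodes the mitochondrial enzyme. In the mammalian cytosol several synthetases are held in a multi-synthetase complex on scaffold proteins, while the others work outside it. Neurons are sensitive to loss of these enzymes: inherited mutations of GARS, YARS or AARS in humans cause peripheral neuropathy, and those of mitochondrial enzymes such as RARS2 cause disease of the brain.

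The sum of FPKM over all entries was 423985 and 419349 in the IP libraries, against 334759 and 335119 in the input libraries, so the scale between the groups is itself a choice. The files give no read totals. Precision can be read from the 95% confidence limits in the files: for genes at FPKM 1 to 2 their median half-width was 20.6% to 22.9%, and for genes at FPKM 10 to 20 it was 7.0% to 7.63%. Npy itself was at 1240 and 1167 FPKM in IP, against 105.4 and 99.2 in input, and all 6 markers of Npy/Sst GABAergic neurons were higher in IP. Of 28 markers of glia, vessels, blood and choroid plexus, 26 were tested, 25 were lower in IP and 0 higher, with a summed level of 128 and 139 FPKM in IP, against 862 and 683 in input, and none of them was at 0 in IP. Of 4 glutamatergic markers 3 were lower in IP. Of 4 amygdala region markers, all detected in the 4 libraries, Prkcd and Cyp26b1 were lower in IP (-1.19 and -0.73 on the log2(FPKM + 1) scale, limma, adjusted p = 0.000497 and 0.00206), and Rspo2 and Drd2 did not pass. These shifts in cell type move with every comparison below, and their part in the results was not tested. Each value is a sum over cells, so the number of cells that contribute and the RNA from each cannot be told apart.

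Of the 36 synthetase genes, 19 were higher and 2 lower in IP than in input, and 15 did not pass (limma on log2(FPKM + 1), adjusted p under 0.05 over all 12418 genes tested). Among all genes tested, 37.0% were higher and 33.9% lower, against 52.8% and 5.6% of the synthetase genes. The cytosolic enzymes gave most of the calls, with 14 of 20 higher, 1 lower and 5 not past, and a median change of 0.37. Of the mitochondrial enzymes 5 of 16 were higher, 1 was lower and 10 did not pass, with a median change of 0.18, against 0.025 over all genes tested. The share called higher was 70.0% for the cytosolic genes. For the mitochondrial genes it was 31.2%, below the 37.0% of all genes, and the share called lower was 6.2%. Both IP libraries lay above both input libraries for 17 cytosolic and 11 mitochondrial genes, or 77.8% of the synthetases together, against 45.0% of all genes. Both lay below for 1 cytosolic and 4 mitochondrial genes, or 13.9%, against 41.4% of all genes.

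**Figure D1:**
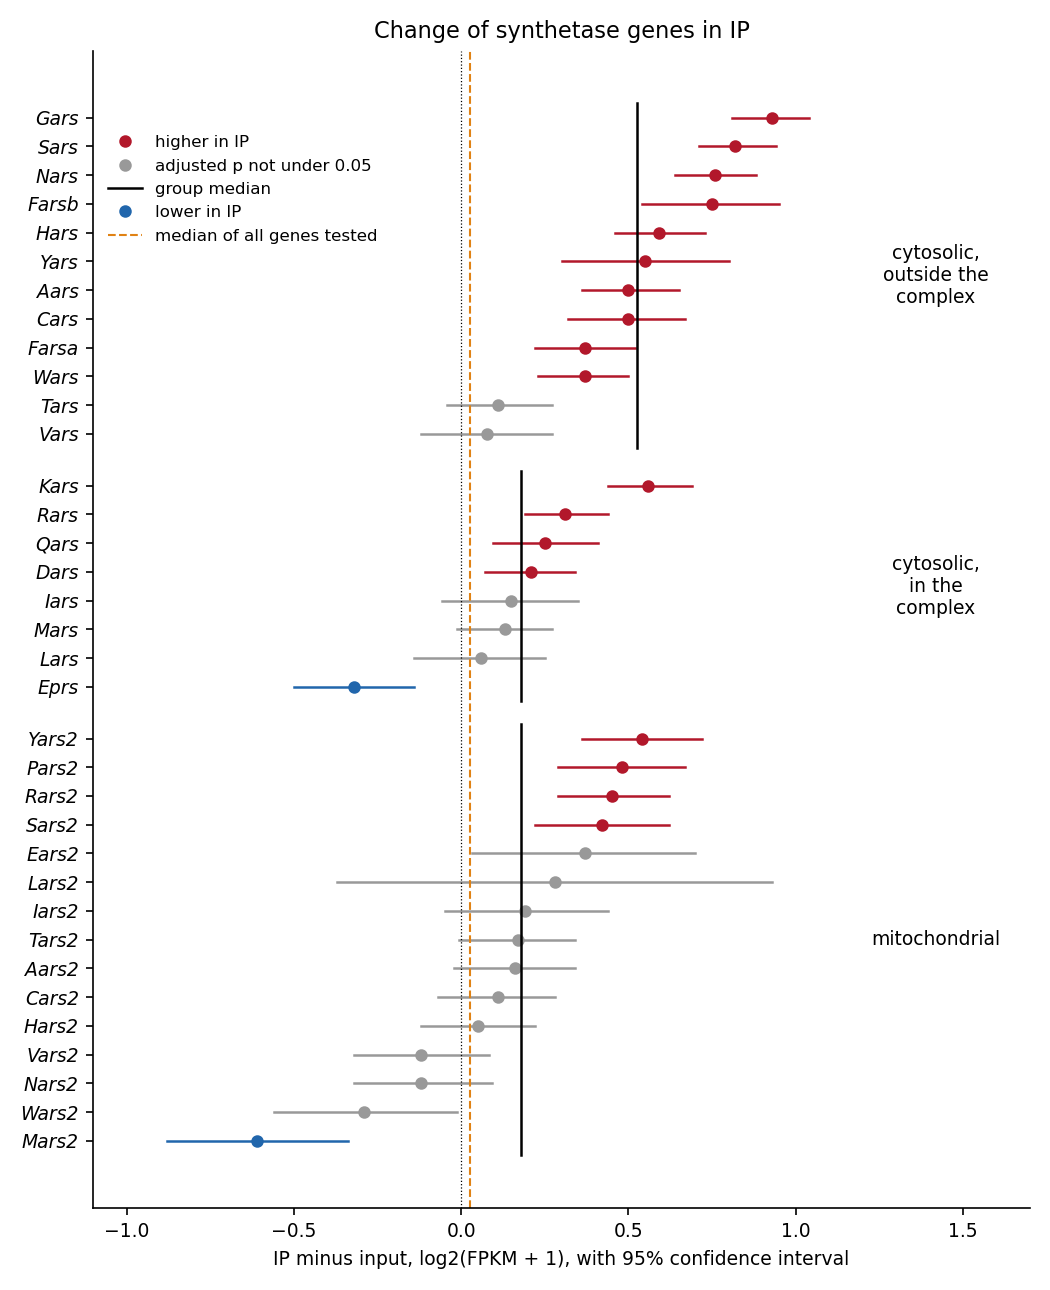
The change of 35 of the 36 genes between IP and input on the log2(FPKM + 1) scale, with its 95% confidence interval from the fit, in 3 groups from top to bottom. The 4 largest changes, in Gars, Sars, Nars and Farsb, are all in cytosolic enzymes outside the complex, while Eprs and Mars2 are the 2 genes that were lower in IP.

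The direction of these calls depends on the scale between the libraries. When each library was rescaled to the same sum of 1000000, the median of all genes moved to -0.29, 17.9% of all genes were higher and 53.8% lower in IP. On that scale 7 cytosolic genes were higher and 5 lower with a median of 0.043, and 1 mitochondrial gene was higher and 6 lower with a median of -0.13. Both class medians stayed above that of all genes. After quantile normalization, which left 35.3% of all genes higher and 30.2% lower, 9 cytosolic genes were higher and 1 lower with a median of 0.18, and 8 mitochondrial genes were higher and 0 lower with a median of 0.24. The mitochondrial median was then the higher one, so no difference between the classes is called. The changes given below are on the deposited scale. Aars, Farsb, Gars, Hars, Kars, Nars, Sars and Yars2 are the 8 genes that were higher under each of the 17 alternatives run. The other 11 higher calls all ended under rescaling to 1 sum.

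**Figure D2:**
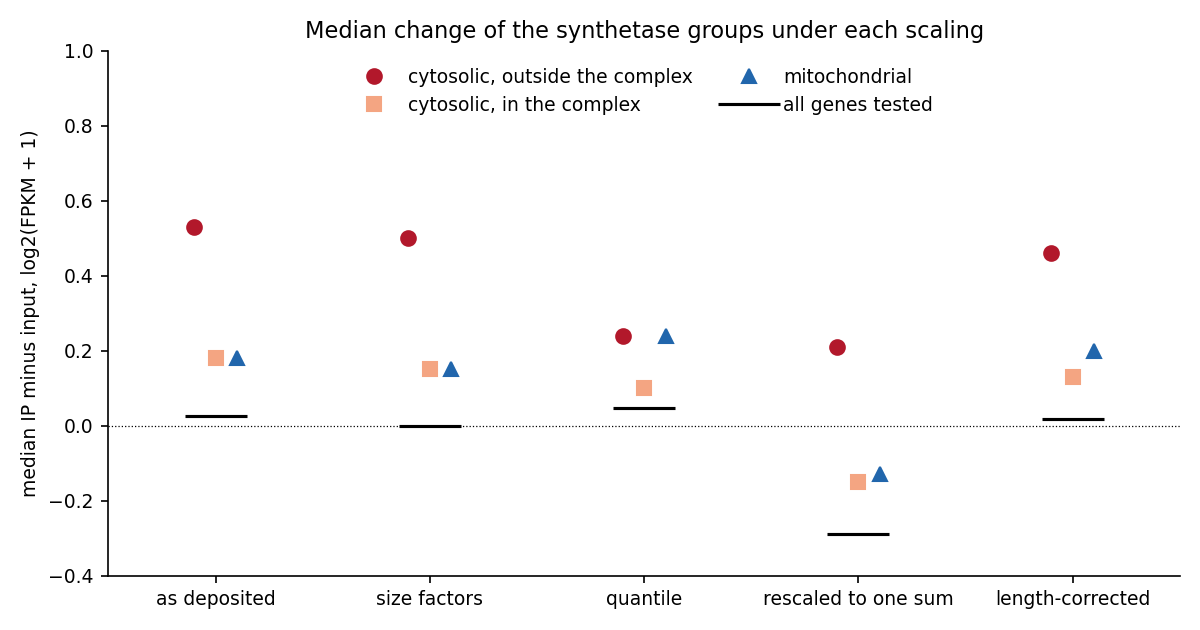
The median change of the synthetase groups and of all genes tested (bars) under 5 treatments of the libraries, on the log2(FPKM + 1) scale. Rescaling to 1 sum moves all groups down, with all genes at -0.29, and quantile normalization brings the cytosolic enzymes outside the complex and the mitochondrial enzymes to 0.24 each.

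Among the 12 cytosolic genes whose enzymes work outside the complex, 10 were higher in IP, 0 lower and 2 not past, with a median change of 0.53 and a range of 0.078 to 0.93. Of all genes tested, 37.0% were higher and 33.9% lower. Gars, the glycyl-tRNA synthetase gene, whose product serves the cytosol and the mitochondria, was at 108.5 and 105.5 FPKM in IP, against 55.6 and 56.1 in input. Its libraries were close within each group and far apart between them, and its change of 0.93 ± 0.046 (SE, n = 2 each, limma, adjusted p = 3.13e-05) was the largest among the synthetases. Sars, which charges both serine and selenocysteine tRNAs with serine, was at 81.6 and 79.2 FPKM in IP, against 45.0 and 45.1 in input, a change of 0.82 ± 0.048 (SE, limma, adjusted p = 4.21e-05). Nars, the asparaginyl enzyme and the cytosolic gene with the highest mean level, was at 132.9 and 125.8 FPKM in IP, against 76.4 and 75.8 in input, a change of 0.76. In both genes every IP library lay well above every input library.

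Farsa and Farsb encode the alpha and beta subunits of phenylalanyl-tRNA synthetase, which assemble in equal numbers. Farsb was at 52.1 and 58.0 FPKM in IP, against 30.3 and 34.5 in input, a change of 0.75. Farsa had a lower level and a smaller change, at 20.5 and 21.1 FPKM in IP, against 15.3 and 16.3 in input, a change of 0.37. After the correction for transcript length the Farsa change was 0.14 and did not pass (limma, adjusted p = 0.0906). The difference between the changes of the subunits was not tested. RefSeq places 265 bases, 10.4% of the Farsb exons, opposite an exon of Sgpp2, and without strand information reads from that stretch cannot be assigned to one gene.

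Hars, the histidyl enzyme, was at 82.0 and 76.0 FPKM in IP, against 51.6 and 52.4 in input, a change of 0.59. Yars (tyrosine), Aars (alanine) and Cars (cysteine) rose by 0.55, 0.50 and 0.50, and Wars (tryptophan) by 0.37. Yars was at 63.9 and 61.1 FPKM in IP, against 37.9 and 47.2 in input, where the libraries stood apart from each other. After quantile normalization Yars was at 0.24 and Wars at 0.040, and neither passed (limma, adjusted p = 0.0929 and 0.536). Tars and Vars are the 2 genes of this group that did not pass. Tars, for threonine, was at 11.4 and 11.3 FPKM in IP, against 10.2 and 10.6 in input (0.11, adjusted p = 0.158, limma). Vars, for valine and the lowest of the cytosolic genes by mean level, was at 7.84 and 7.66 FPKM in IP, against 6.86 and 7.73 in input, so its groups overlapped (0.078, adjusted p = 0.411, limma).

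**Figure D3:**
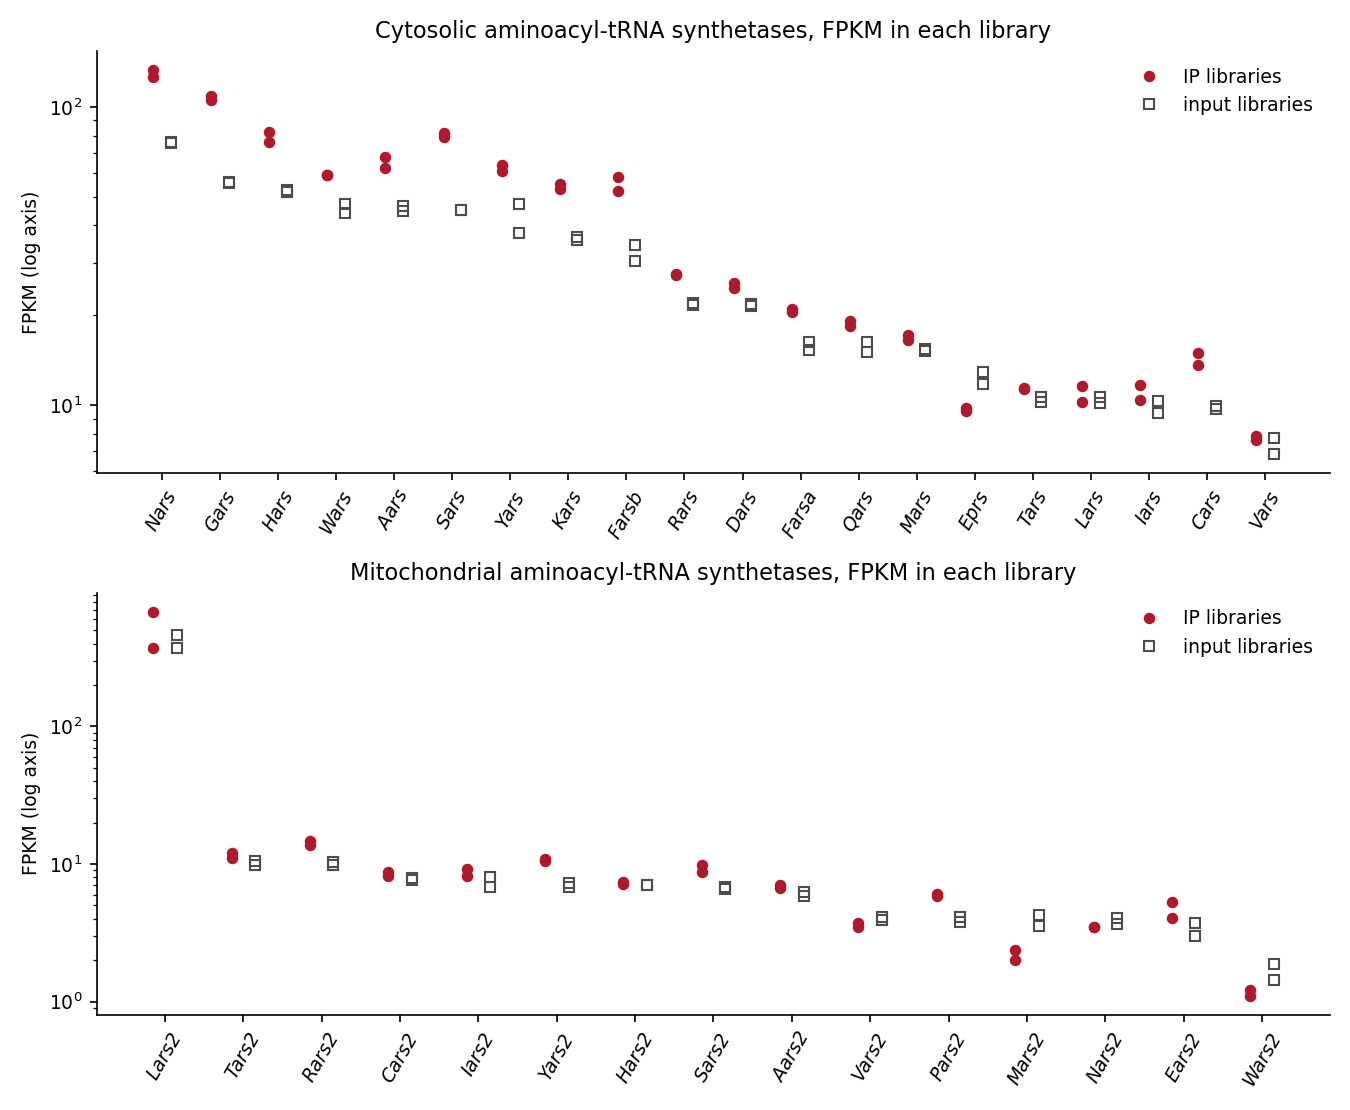
FPKM of 35 of the 36 synthetase genes in the 2 IP libraries (filled circles) and the 2 input libraries (open squares) on a log axis, with genes ordered by their input level within each class. Cytosolic genes spread from Vars at 6.86 to Nars at 132.9 FPKM, and the mitochondrial genes other than Lars2 lie between 1.11 and 14.7 FPKM.

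Several synthetase genes are known targets of ATF4, a transcription factor of the amino acid response that binds the C/EBP-ATF response element. The core of that element, TGATGNAA, was searched on both strands in RefSeq promoters, from 250 bases before to 50 after the start of each gene (GRCm38.p6). Of the members, 13 cytosolic and 13 mitochondrial genes had a promoter in the table. The core was found in 5 of the 13 cytosolic genes (38.5%) and in 0 of the 13 mitochondrial genes, against 4.51% of 27025 genes in the table. The stretch from base -125 to base 25 of each of the 5 is shown 5′ to 3′ on the gene's strand, since it holds every match, with the matched letters in capitals.
Gars: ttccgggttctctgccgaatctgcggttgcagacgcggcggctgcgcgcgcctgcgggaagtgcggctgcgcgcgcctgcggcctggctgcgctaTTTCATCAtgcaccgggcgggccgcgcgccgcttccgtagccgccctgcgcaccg
Aars: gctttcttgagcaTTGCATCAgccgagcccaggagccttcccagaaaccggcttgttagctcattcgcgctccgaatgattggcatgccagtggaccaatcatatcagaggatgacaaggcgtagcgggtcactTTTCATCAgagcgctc
Yars: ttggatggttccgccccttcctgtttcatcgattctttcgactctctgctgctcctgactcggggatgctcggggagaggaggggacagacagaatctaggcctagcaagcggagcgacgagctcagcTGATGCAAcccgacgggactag
Iars: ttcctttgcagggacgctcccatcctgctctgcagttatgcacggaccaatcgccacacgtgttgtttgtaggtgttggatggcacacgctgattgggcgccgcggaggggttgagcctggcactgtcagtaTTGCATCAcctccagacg
Tars: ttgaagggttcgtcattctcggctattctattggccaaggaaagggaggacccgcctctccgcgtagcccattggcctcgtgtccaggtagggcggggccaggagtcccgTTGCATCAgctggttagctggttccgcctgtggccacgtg
The stretches lie at chr6:55037876-55038025 (Gars, plus strand), chr8:111033717-111033866 (Aars, plus), chr4:129189778-129189927 (Yars, plus), chr13:49682005-49682154 (Iars, plus) and chr15:11399634-11399783 (Tars, minus). Counted from the start as base 1, the matches begin at -30 in Gars, at -112 and 10 in Aars, at 4 in Yars, at 8 in Iars and at -15 in Tars. Yars carries the core as written and the other 4 genes its reverse complement, TTNCATCA. The genes with a match did not share 1 response: Gars, Yars and Aars rose by 0.93, 0.55 and 0.50, while Iars and Tars, at 0.15 and 0.11, did not pass. Sars, Farsb and Kars rose by 0.82, 0.75 and 0.56 without a match in this window. A match is a run of letters, and binding was not measured.

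The 8 cytosolic genes whose enzymes belong to the multi-synthetase complex gave 4 higher, 1 lower and 3 not past. Their median change was 0.18. Among all genes tested 37.0% were higher and 33.9% lower, and no difference from these shares is read from these 8 genes. Their division from the other 12 follows the known make-up of the complex and was made with these values in view, so it is described without a test. Median levels were 17.8 FPKM in IP and 15.5 in input for genes of the complex, and 60.8 in IP and 43.8 in input for those outside it. Kars, the lysyl enzyme, which also serves the mitochondria, was at 55.0 and 52.9 FPKM in IP, against 36.6 and 35.7 in input, and had the largest change of the complex, 0.56 ± 0.051 (SE, limma, adjusted p = 0.000178). Rars (arginine), Qars (glutamine) and Dars (aspartate) rose by 0.31, 0.25 and 0.21. The Dars call was lost without IP replicate 2, without input replicate 1 and without input replicate 2, and the Qars call without IP replicate 2 and without input replicate 1, with adjusted p between 0.0569 and 0.0839 (limma). After the correction for transcript length Dars was at 0.051 (adjusted p = 0.453) and Qars at 0.14 (adjusted p = 0.115). After quantile normalization none of the 3 passed, with Dars at 0.029 (adjusted p = 0.677), Qars at 0.13 (adjusted p = 0.153) and Rars at 0.12 (adjusted p = 0.0926).

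Eprs, which carries the glutamyl and the prolyl enzyme in a single chain, was the only cytosolic gene called lower, at 9.78 and 9.53 FPKM in IP, against 11.7 and 12.9 in input. Its groups did not overlap, and its change was -0.32 ± 0.073 (SE, limma, adjusted p = 0.00783), but without input replicate 2 it was -0.26 and no longer passed (adjusted p = 0.0603). After a correction for transcript length it was -0.15 and did not pass either (adjusted p = 0.108). The mitochondria have a gene for each of these activities, and these did not share the direction of Eprs. Pars2, for proline, rose, at 5.82 and 6.07 FPKM in IP, against 4.13 and 3.82 in input (0.48, adjusted p = 0.00198, limma). Ears2, for glutamate, was at 4.03 and 5.29 FPKM in IP, against 3.74 and 3.01 in input (0.37, adjusted p = 0.0514, limma).

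The other 3 genes of the complex did not pass. Iars (isoleucine) was at 11.7 and 10.4 FPKM in IP, against 10.3 and 9.41 in input (0.15, adjusted p = 0.157, limma). Under 2 of the alternatives run, among them the correction for transcript length, Iars passed as higher. Mars, which also charges the initiator tRNA with methionine, was at 17.1 and 16.5 FPKM in IP, against 15.4 and 15.2 in input (0.13, adjusted p = 0.0919). RefSeq places 68 bases, 2.29% of the Mars exons, opposite Ddit3, which was higher in IP by 0.41. Lars, the leucyl enzyme, which is also known as a leucine sensor upstream of mTORC1, was at 11.6 and 10.2 FPKM in IP, against 10.7 and 10.1 in input, with overlapping groups (0.058, adjusted p = 0.54). The 3 scaffold genes of the complex were all higher in IP, against 37.0% of all genes tested. Eef1e1 was at 68.3 and 70.8 FPKM in IP, against 28.4 and 26.7 in input, a change of 1.30, above that of any synthetase. Aimp2 rose by 0.46. The rise of Aimp1 was small, at 0.18 (adjusted p = 0.0342, limma), and the confidence limits listed for its libraries were not apart between IP and input.

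The mitochondrial enzymes were expressed at lower levels, with a median of 7.50 FPKM in IP and 6.36 in input, against 26.3 and 21.8 for the cytosolic enzymes. Yars2, the tyrosyl enzyme, was at 11.0 and 10.5 FPKM in IP, against 6.81 and 7.30 in input, and had the largest rise among them (0.54 ± 0.072 SE, limma, adjusted p = 0.000823). Rars2, for arginine, was at 14.7 and 13.8 FPKM in IP, against 10.4 and 9.90 in input, a change of 0.45. These genes kept their groups well apart. Sars2, for serine, was at 9.88 and 8.71 FPKM in IP, against 6.59 and 6.79 in input, a change of 0.42. The Sars2 call ended after the correction for transcript length (0.21, adjusted p = 0.0618).

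Mars2, the mitochondrial methionyl enzyme, went the other way. It was at 2.37 and 2.01 FPKM in IP, against 4.24 and 3.53 in input, a change of -0.61 ± 0.11 (SE, limma, adjusted p = 0.00301). Its groups did not overlap, and IP stood at 0.564 times the input mean. At these levels the added 1 shrinks the change, and after quantile normalization it was -0.28 and did not pass (adjusted p = 0.0644). The other mitochondrial genes that lay below input in both IP libraries did not pass. Wars2, the lowest of all members and the tryptophanyl enzyme, was at 1.11 and 1.21 FPKM in IP, against 1.43 and 1.87 in input (-0.29, adjusted p = 0.0592, limma). Nars2 was at 3.47 and 3.47 FPKM in IP, against 4.06 and 3.64 in input (-0.12, adjusted p = 0.259). Vars2 was at 3.50 and 3.74 FPKM in IP, against 3.89 and 4.12 in input (-0.12, adjusted p = 0.239). With the pairs of libraries as a replicate block, Wars2 passed as lower (limma, adjusted p = 0.0393) and Ears2 as higher (adjusted p = 0.0349). The block was not the only such setting. Of the 16 alternatives in which these genes were tested, Ears2 gained a call in 6 and Wars2 in 4, and Wars2 changed sign in 1.

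Further mitochondrial genes lay slightly above input in both IP libraries without passing. Tars2 (threonine) was at 11.9 and 11.2 FPKM in IP, against 10.5 and 9.81 in input (0.17, adjusted p = 0.0751, limma). Aars2 (alanine) was at 6.99 and 6.75 FPKM in IP, against 5.82 and 6.26 in input (0.16, adjusted p = 0.0979). Cars2 (cysteine) was at 8.72 and 8.13 FPKM in IP, against 7.65 and 7.87 in input (0.11, adjusted p = 0.228). For these 3 genes the gap between the groups was close to the spread within them. Iars2 (isoleucine) was at 9.15 and 8.19 FPKM in IP, against 6.83 and 8.10 in input (0.19, adjusted p = 0.125), and RefSeq places 105 bases, 2.95% of its exons, opposite Rab3gap2. Hars2 (histidine) was at 7.39 and 7.22 FPKM in IP, against 6.99 and 7.06 in input (0.050, adjusted p = 0.54). The interval of the Hars2 change was -0.12 to 0.22, and its difference from the change of Hars was not tested.

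Lars2, the mitochondrial leucyl enzyme, stood apart from the other members in level and in spread. It was listed at 370.9 and 680.3 FPKM in IP, against 374.1 and 459.2 in input, while no other mitochondrial synthetase passed 14.7 FPKM in any library. Its IP libraries differed 1.83-fold, the widest gap within a group among the 36 genes, and the next widest in IP was 1.31-fold in Ears2. Its groups overlapped (0.28, interval -0.37 to 0.93, adjusted p = 0.384, limma), and without IP replicate 1 it passed as higher (0.71, adjusted p = 0.00363), while without IP replicate 2 it was at -0.16 (adjusted p = 0.286). Rn45s, the ribosomal RNA precursor, was listed at 1197 and 2455 FPKM in IP, against 1420 and 1817 in input, and put the 4 libraries in the same order as Lars2. The last Lars2 exon of RefSeq, chr9:123461499-123462675 on the plus strand (GRCm38.p6), holds the 16 bases of the sarcin-ricin loop, a conserved stretch of large-subunit ribosomal RNA, at chr9:123462169-123462184. How many of the reads counted for Lars2 came from ribosomal RNA was not tested. Without Lars2, the mitochondrial synthetases summed to 107 and 104 FPKM in IP, against 88.6 and 88.6 in input.

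**Figure D4:**
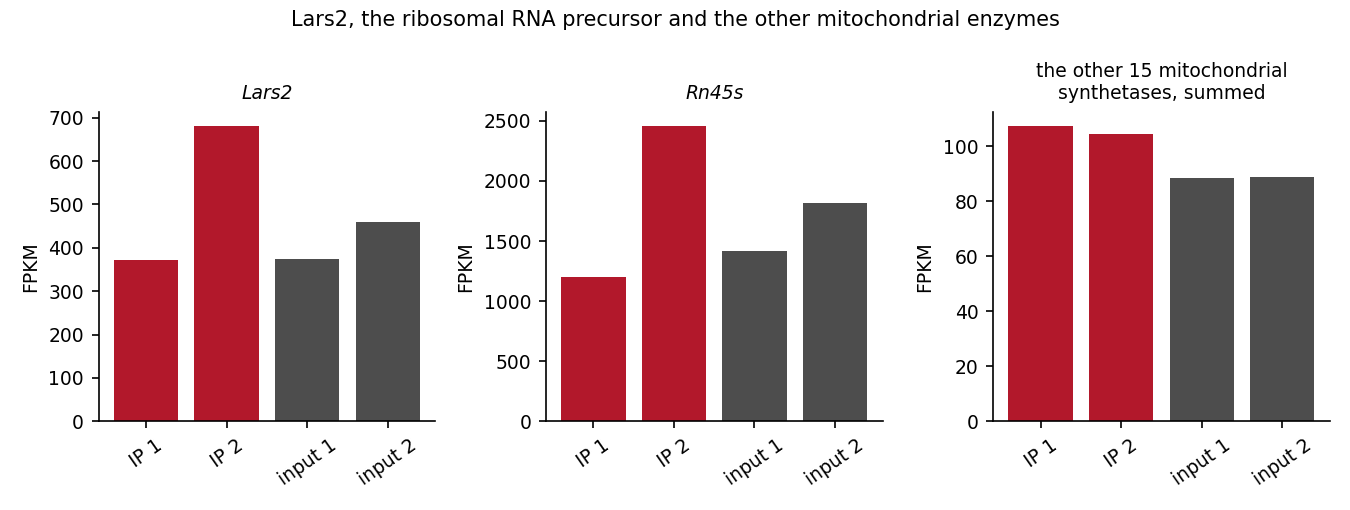
FPKM in each library, IP replicates left and input replicates right, for Lars2, for Rn45s and for the sum of the other 15 mitochondrial synthetases. Lars2 and Rn45s share the order of libraries, with IP replicate 2 highest at 680.3 and 2455 FPKM, which the other mitochondrial synthetases do not show.

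For 14 amino acids a cytosolic and a mitochondrial gene could be set side by side as a ratio of FPKM within each library. Such a ratio cancels a single factor per library, but not a scaling that depends on the level, such as quantile normalization. That normalization reversed the sign of the changes of Nars2 and Wars2. The cytosolic gene was above its mitochondrial partner in all 4 libraries for 12 amino acids, the exceptions being leucine, where Lars2 is listed so high, and threonine, where Tars and Tars2 were nearly equal. The ratio was higher in both IP libraries than in both input libraries for 8 amino acids, lower for 2 and overlapping for 4. No share over other gene pairs was computed, so no difference between the classes is read from this count. Across all genes tested the change tended to rise with the input level (Spearman's rho 0.33), and the cytosolic gene was mostly the higher partner. The part of level in these ratios was not tested. For asparagine it averaged 37.3 in IP and 19.8 in input, for tryptophan 51.0 in IP and 28.1 in input, and for methionine 7.72 in IP and 3.97 in input. In these 3 the mitochondrial gene was below input in both IP libraries. For arginine the ratio was lower in IP, at 1.92 in IP and 2.15 in input, although both Rars and Rars2 were higher in IP. For tyrosine both genes rose alike, by 0.55 and 0.54, and the ratio was 5.84 in IP and 6.01 in input. With 2 libraries a group, these ratios are described without a test.

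**Figure D5:**
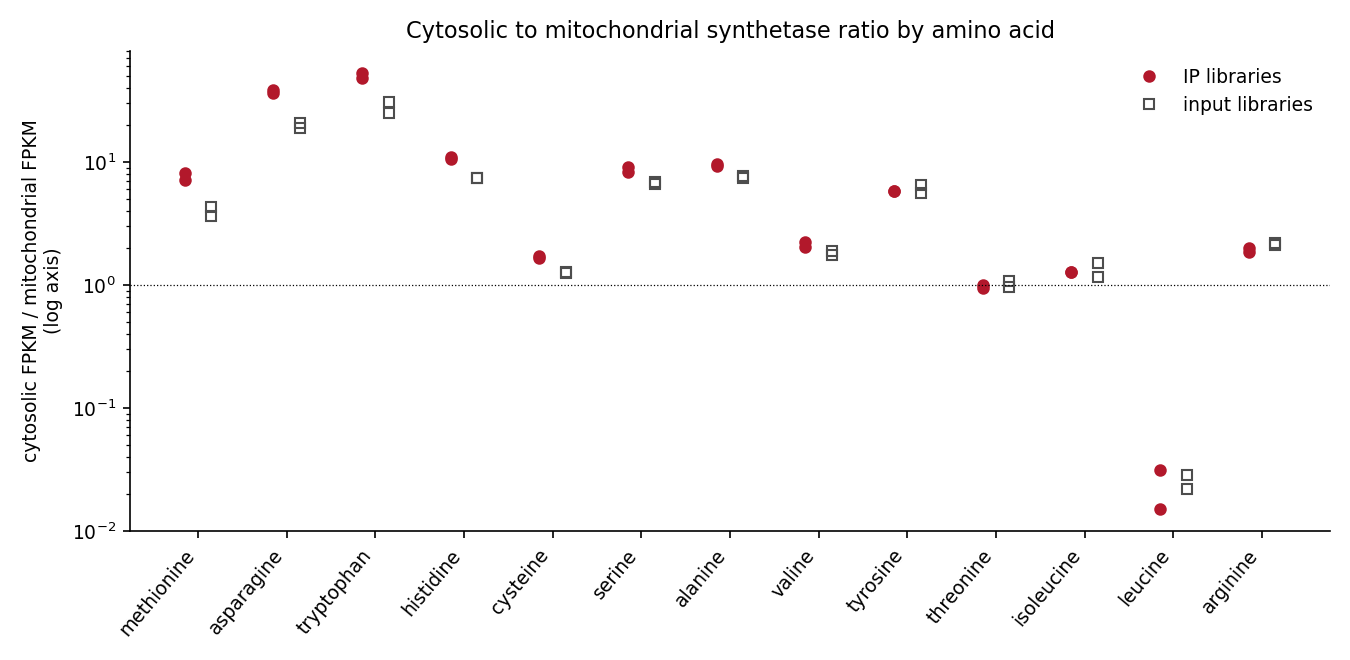
The ratio of cytosolic to mitochondrial FPKM for 13 of the 14 amino acids in the 2 IP libraries (filled circles) and the 2 input libraries (open squares), on a log axis and ordered by the shift of the ratio. Methionine, asparagine and tryptophan shift furthest upward, and leucine lies far below 1 because Lars2 is listed at 370.9 to 680.3 FPKM.

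By position, 10 members start within 1000 bases of a gene that runs the opposite way. The starts of Hars and Hars2 lie 4 bases apart, and Hars rose by 0.59 and Hars2 was at 0.050. Kars and Terf2ip, 5 bases apart, rose alike, by 0.56 and 0.55. Yars rose by 0.55 while S100pbp, whose start is 324 bases away, fell by 0.43 (limma, adjusted p = 0.00201). Sars2 lies 147 bases from Mrps12, a mitochondrial ribosomal protein gene, which was at 137 and 145 FPKM in IP, against 71.6 and 73.1 in input, a change of 0.95. Rars2 rose by 0.45 while Orc3, 15 bases away, was at 0.06 and did not pass. Ubfd1, 112 bases from Ears2, rose by 0.59.

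Shorter and more highly expressed members tended to have the larger changes. Across the 20 cytosolic genes, Spearman's rho between the change and the longest RefSeq transcript was -0.48, and across the 16 mitochondrial genes it was -0.38, against -0.37 across 12363 genes with a length. Between the change and the mean input level, rho was 0.79 across the cytosolic, 0.36 across the mitochondrial and 0.33 across all genes tested. These are descriptions, since the genes share the 4 libraries and the input level enters both measures. After each library was corrected for transcript length, which left 33.9% of all genes higher and 31.5% lower, 12 cytosolic genes were higher and 0 lower with a median of 0.29. Iars was among these higher genes, although it did not pass without the correction. The mitochondrial genes then gave 5 higher and 1 lower with a median of 0.20.

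Other genes of tRNA charging and mitochondrial translation were taken from lists by function, whose counts stand beside the 37.0% higher and 33.9% lower among all genes tested. The mitochondria make glutaminyl-tRNA by way of an amidotransferase, and its 3 subunit genes were higher in IP: Qrsl1 by 0.65, Gatc by 0.35 and Pet112, the gene also called Gatb, by 0.29. Mtfmt, which formylates the initiator, did not pass (-0.14, adjusted p = 0.294, limma). Of 8 further genes of synthetases and their relatives, 5 were higher and 1 lower. Aarsd1, an editing enzyme of alanine tRNA, rose by 0.65, Dtd1, which removes D-amino acids from tRNA, by 0.55, and Pstk, a kinase of the selenocysteine route, by 0.52, whereas Sepsecs, the next enzyme of that route, fell by 0.36. Fars2, the mitochondrial phenylalanyl enzyme, was at 13.2 and 13.2 FPKM in IP, against 11.7 and 10.4 in input, and rose by 0.24. Tarsl2, another cytosolic threonyl enzyme, was at 12.7 and 10.9 FPKM in IP, against 13.8 and 13.7 in input (-0.21, adjusted p = 0.0656, limma).

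Of 21 tested genes of tRNA maturation and modification, 9 were higher, 2 lower and 10 not past, with a median change of 0.14. The share of higher calls lay near that of all genes (37.0%), and the share of lower calls lay below theirs (33.9%). Pus1, a pseudouridine synthase, rose by 0.83, Tsen34, a subunit of the splicing endonuclease, by 0.67 and Elp3, the catalytic subunit of Elongator, by 0.61. Elac2, which trims the 3′ ends of tRNA precursors, had a listed FPKM of 0 in IP replicates 1 and 2, against 8.67 and 8.90 in input. It is 1 of the 2 lower calls. Its entry carried no failed status, and whether the 0 reflects the RNA or the estimate was not tested. Among 7 elongation and initiation factors of the mitochondria 3 were higher and 0 lower, with Tufm at 0.90 and Tsfm at 0.74. Mitochondrial ribosomal protein genes gave 75 of 76 higher with a median of 0.76, against 5 of 16 and 0.18 for the mitochondrial synthetases. The ribosomal protein genes were shorter, with a median transcript length of 1067 bases against 3441. Their median input level was higher, at 27.4 FPKM against 6.36. The part of length and level in this contrast was not tested. Cytosolic elongation factors gave 3 of 6 higher and 1 lower, with Eef1a2, the neuronal form, at 0.36 and Eef1a1 at -0.28.

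The list of ATF4 and its targets in the amino acid response gave 11 of 23 tested genes higher, 8 lower and 4 not past, with a median change of 0.074. These shares lay near the 37.0% higher and 33.9% lower of all genes, so nothing is read from the list as a whole. Atf4 itself was at 199.5 and 205.7 FPKM in IP, against 100.0 and 102.0 in input, a change of 1.00 (limma, adjusted p = 2.66e-05). Chac1, a glutathione-degrading enzyme, rose by 1.52, Mthfd2, of mitochondrial folate metabolism, by 1.00 and Asns, asparagine synthetase, by 0.66. Phgdh, the entry enzyme of serine synthesis, was at 3.58 and 4.06 FPKM in IP, against 10.3 and 11.7 in input, a change of -1.32, and Cth, of cysteine synthesis, fell by 0.89. Phgdh is also an astrocyte gene, and all 5 astrocyte markers were lower in IP, with a summed level of 27.7 and 34.0 FPKM in IP, against 171 and 184 in input. The part of that shift in the list was not tested.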

How the data were processed

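The values are gene-level FPKM made by the authors with Cufflinks and deposited for each library with 95% confidence limits, per the file headers. Reads were aligned with TopHat to mm10 with a UCSC transcript annotation, per the series' design text and the submitters' processing notes, and versions, strand and scaling between libraries are not given in the sources used here. Groups and replicate numbers came from the titles. For IP replicate 2 the source description gives another number, and the title was followed. Each IP has an input from the same pool per the design text, and paired deviations from the group means correlated at 0.161.

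Of 24490 entries per library, 8 with a failed status and 1272 with small RNA names were left out, and the highest entry of each symbol was kept. The 12418 genes that reached an FPKM of 1 in 2 or more libraries were tested as log2(FPKM + 1) with lmFit and eBayes with a trend (limma 3.58.1, R 4.3.3), two-sided, without a block, with Benjamini-Hochberg adjustment at 0.05. Changes are IP minus input on that scale, which understates low genes. FPKM are not counts, so no count test was run. The p-values rest on 2 pools that both groups share, and the main test left this pairing out. No values of FPKM at or above 5 were identical between replicates. The code of the test was checked on simulated data with even, independent noise and few changed genes. That check does not give error rates for these data.

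The members, lists and tests were chosen with earlier results of these data known. Values per library are given for members that did not pass, that opposed their class, that had the 5 largest changes of a class or its highest or lowest level, and for other genes picked with their values in view. The alternatives run were other pseudocounts, filters, scalings, variance settings, summed entries, a replicate block, each library left out, and, chosen after seeing the data, 2 corrections for transcript length and mitochondrial counts without Lars2 and with Fars2. Sequences, positions and neighbours are from RefSeq (GRCm38.p6), where all 36 members matched. The values of 1 member, which stays in the counts, sums and medians, are not reported here. Figures used matplotlib 3.10.9.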

Additional observations from a re-analysis of the deposited data

How the results depend on the processing

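Over the members and settings, 532 values kept direction and side of the threshold, 33 lost the call, 19 gained one and 23 changed sign. Rescaling to one sum accounted for 14 of these: Dars at -0.12, Lars at -0.27, Mars at -0.20, Qars at -0.069, Rars at -0.014, Tars at -0.21, Vars at -0.24, Cars2 at -0.21, Hars2 at -0.27, Iars at -0.17, Aars2 at -0.15, Iars2 at -0.12, Lars2 at -0.062 and Tars2 at -0.15. Quantile normalization turned Lars2 to -0.28, Nars2 to 0.18, Vars2 to 0.17 and Wars2 to 0.15. Length correction turned Cars2 to -0.12 with lengths from either RefSeq or GENCODE, and Vars2 to 0.003 with RefSeq. With 1 library left out, Lars ran from -0.025 (without IP replicate 1) to 0.14, and Lars2 from -0.16 (without IP replicate 2) to 0.71. Of the genes that changed sign, Dars, Qars and Rars had been called. Rescaling also gave 7 cytosolic genes higher and 5 lower (median 0.043) and 1 mitochondrial gene higher and 6 lower (median -0.13). Quantile normalization gave 9 cytosolic genes higher (median 0.18) and 8 mitochondrial genes higher and 0 lower (median 0.24). The cytosolic and mitochondrial medians were 0.32 and 0.13 with a pseudocount of 5, and the cytosolic median was 0.34 with size factors. The filter at FPKM 5, which left 11 mitochondrial genes, gave 0 lower and a median of 0.28. The replicate block raised the mitochondrial genes lower in IP to 2, as did eBayes without trend, and the block changed no other call than those of Wars2 and Ears2. With transcript lengths from RefSeq 0 cytosolic genes were lower and the median was 0.29, and with lengths from GENCODE, where Mars2 is listed far longer, 0 cytosolic and 0 mitochondrial genes were lower and the cytosolic median was 0.27. With 1 library left out, the lone library being assumed to vary like the others, the cytosolic genes gave 12 to 14 higher, 0 to 1 lower and medians of 0.33 to 0.41, and the mitochondrial genes 4 to 7 higher, 1 to 2 lower and medians of 0.12 to 0.23. The cause of these shifts was not tested. Without Lars2 the mitochondrial median was 0.17, and with Fars2 added it was 0.19. The confidence limits listed for low FPKM are wide, which limits what can be said of Wars2, Mars2, Ears2, Nars2 and Vars2.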
